A study of Mus musculus with 18 samples.

Results

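The data describe how the loss of Nrf1 altered the transcriptional response of mouse fibroblasts to the proteasome inhibitor carfilzomib (CFZ) after 6 h. NIH-3T3 cells, an established line of immortalized mouse fibroblasts, were compared with an Nrf1-KO derivative that had been made by CRISPR/Cas9. RNA was sequenced from 12 cultures, with 3 biological replicates each of WT cells in DMSO (vehicle), WT cells in 200 nM CFZ for 6 h, Nrf1-KO cells in DMSO and Nrf1-KO cells in 200 nM CFZ for 6 h, all grown in DMEM with serum. The series holds 18 libraries, and the other 6 are the same lines after 24 h of CFZ. The duration of DMSO exposure is not given in the sources used here. These sources name a single Nrf1-KO line, so the genotype and the line cannot be told apart. For each gene the interaction is the log2 change with CFZ in Nrf1-KO cells less the log2 change with CFZ in WT cells. A positive interaction means a higher response in Nrf1-KO cells and a negative one a lower response. Of 23420 gene symbols in the table, 11762 had enough counts to be tested and 6577 were at 0 in all 18 libraries. The 33 proteasome genes and 39 genes of the unfolded protein response (UPR) that the study itself displayed were set aside, and the 11690 other genes are described here.

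Nrf1, encoded by Nfe2l1, is a transcription factor of the cap'n'collar family that is anchored in the endoplasmic reticulum and is normally degraded by the proteasome. When the proteasome is inhibited, Nrf1 is processed to an active form and induces proteasome subunit genes, known as the bounce-back response. It binds antioxidant response elements together with small Maf proteins, as does its relative Nrf2. Proteasome inhibition also activates heat shock genes and, through phosphorylation of eIF2 alpha, the ATF4 program of amino acid synthesis, transport and tRNA charging genes.

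The 12 libraries held between 8333148 and 23917081 counts. Within groups the libraries correlated at 0.994 or more across genes, and no pair differed by less than the sampling noise. All 10 fibroblast markers were tested, with a summed level of 28700 to 37600 CPM (counts scaled to library size) in the 12 libraries. Epithelial markers, of which Krt14 was the most abundant, summed to 142 to 151 CPM in WT DMSO and 69.6 to 71.1 CPM in Nrf1-KO DMSO, with Epcam, Krt8 and Krt18 at 0 in both. Endothelial, muscle and adipocyte markers stayed at or under 2.28 CPM. The 5 haematopoietic markers, of which Cd14 was the most abundant, summed to 8.26 to 8.82 CPM in WT DMSO, 9.39 to 10.1 in WT CFZ, 11.1 to 13.1 in Nrf1-KO DMSO and 14.3 to 15.1 in Nrf1-KO CFZ. Emr1 was at 0 in all 12 libraries. Ptprc was at 0 in the 6 WT libraries and held 6 to 26 counts in each Nrf1-KO library. Fewer cells of a type and less RNA per cell cannot be told apart in such bulk samples, and the part of the marker differences in the results was not tested. Nfe2l1 itself (chromosome 11, 96817414 to 96829968, minus strand, GRCm38) measured 457, 437 and 449 CPM in WT DMSO and 174, 185 and 181 CPM in Nrf1-KO DMSO. With CFZ it measured 650, 648 and 628 CPM in WT cells and 414, 416 and 427 CPM in Nrf1-KO cells. The targeted transcript was therefore lower in every Nrf1-KO library than in every WT library of the same treatment, but was not lost. Counts summed over a gene do not show whether these transcripts encode a functional protein. The row named Nrf1 in the table is nuclear respiratory factor 1, a different gene.

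Outside the proteasome and UPR lists, the response to CFZ was higher in Nrf1-KO cells for 2315 genes and lower for 2130, and 7245 genes were not called (edgeR quasi-likelihood test, Benjamini-Hochberg adjusted p-value under 0.05). Over all tested genes the interaction was called for 38.3%, as 19.8% higher and 18.4% lower. Most of these differences were small. The interaction lay within 0.5 on the log2 scale for 83.4% of the genes, and its 5th and 95th percentiles were -0.66 and 0.69. A difference of at least 2-fold was called for 138 genes in the higher direction and 162 in the lower direction, against a background of 2.78% of all tested genes (1.21% higher and 1.57% lower). The median over the 11690 genes was 0.02. The common biological coefficient of variation between replicates was 3.13%, so that small differences passed the test.

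CFZ itself changed most genes in both lines. In WT cells 4118 genes rose and 4262 fell, and in Nrf1-KO cells 4005 rose and 4108 fell (over all tested genes, 35.6% higher and 36.2% lower in WT, 34.5% higher and 35% lower in Nrf1-KO). With scaling by library size alone these became 3015 and 5623 genes in WT cells and 2989 and 5283 in Nrf1-KO cells. The lines share no library, and their calls were mostly in the same direction, with 3014 genes higher in both and 3083 lower in both. Opposite calls were fewer, at 258 genes that rose in WT and fell in Nrf1-KO cells and 216 that fell in WT and rose in Nrf1-KO cells. Among genes called with at least a 2-fold lower response in Nrf1-KO cells, the median change with CFZ was 1.25 on the log2 scale in WT cells and -0.24 in Nrf1-KO cells. Among those with at least a 2-fold higher response, the medians were -0.85 in WT and 0.51 in Nrf1-KO cells. The selection on the interaction fixes that these medians differ, but not where each of them lies. Of the 1096 genes called with at least a 2-fold change in WT cells, 119 changed less than 1.2-fold in Nrf1-KO cells (67 of them higher and 52 lower in WT). Of the 872 such genes in Nrf1-KO cells, 44 changed less than 1.2-fold in WT cells (26 higher and 18 lower).

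**Figure D1:**
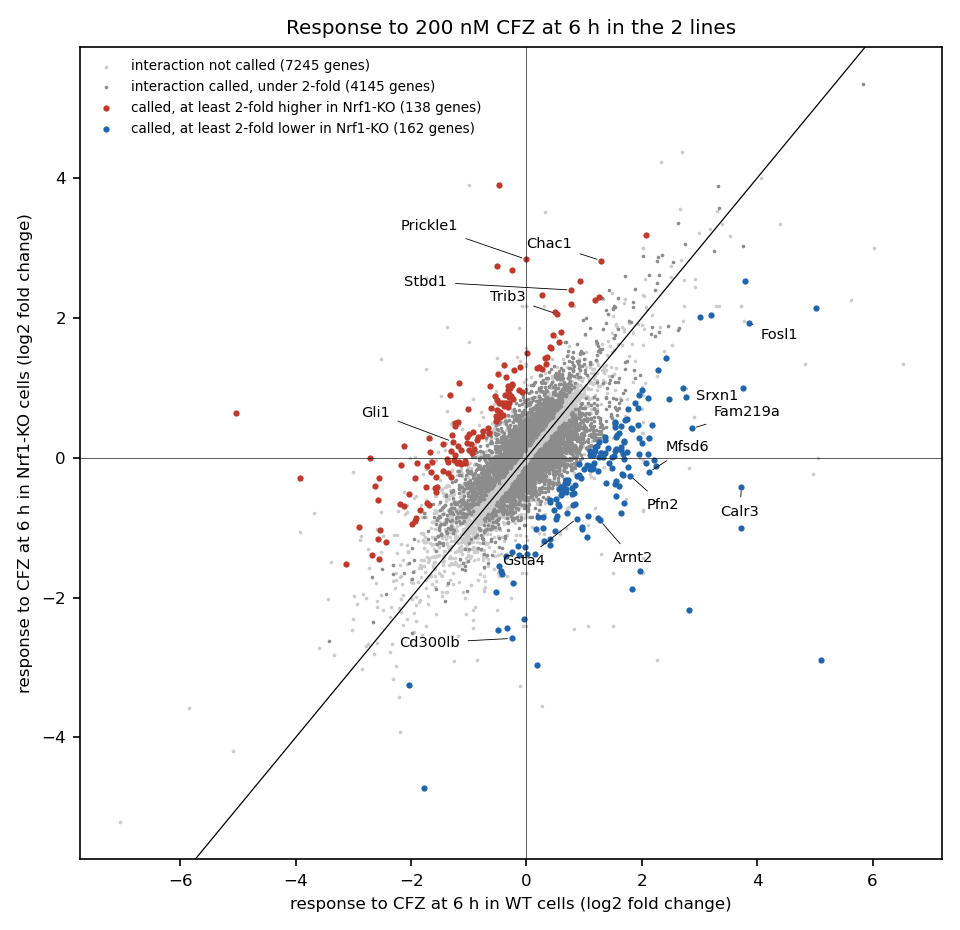
Each point is a gene outside the proteasome and UPR lists, placed by its log2 change with 200 nM CFZ at 6 h in WT cells (x axis) and in Nrf1-KO cells (y axis), and the diagonal marks equal responses. Coloured points are the 138 genes with a called response at least 2-fold higher and the 162 with one at least 2-fold lower in Nrf1-KO cells, and Calr3 and Prickle1 lie far from the diagonal on opposite sides.

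Antioxidant genes had the highest share of lower responses among the 18 gene lists examined. Of 43 tested genes of the NRF2-type antioxidant and glutathione list, 33 had a lower response in Nrf1-KO cells and 2 a higher response, with a median interaction of -0.55 and 8 genes at least 2-fold lower. Called genes made up 81.4% of the list, against 38.3% of all tested genes (18.4% lower, and 1.57% at least 2-fold lower). The median change of the list with CFZ was 0.76 in WT cells, where 34 genes rose and 3 fell, and 0.18 in Nrf1-KO cells, where 24 rose and 12 fell. In DMSO the median difference between the lines was -0.06. The lower call was held by 31 to 34 genes under every alternative tried. The higher calls, Gclc and Ephx1, both lost significance without the first WT CFZ library, and 1 of them did without the first WT DMSO, the second WT CFZ, the third WT CFZ or the third Nrf1-KO DMSO library, by DESeq2 and with no expression filter.

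Srxn1, the sulfiredoxin that reactivates oxidized peroxiredoxins, lies on chromosome 2 (152105516 to 152111376, plus strand). It measured 66.5, 65.3 and 65.8 CPM in WT DMSO and 71.4, 68.9 and 76.4 CPM in Nrf1-KO DMSO. After CFZ it reached 444, 432 and 424 CPM in WT cells and 145, 143 and 148 CPM in Nrf1-KO cells. The lines were close in DMSO, and after CFZ no Nrf1-KO library came near the WT range. The log2 change was 2.72 ± 0.04 (SE) in WT and 0.998 ± 0.039 in Nrf1-KO cells, an interaction of -1.72 ± 0.05 (edgeR adjusted p = 2.63e-21, n = 3 per group). Gsta4, a glutathione transferase that conjugates lipid peroxidation products, lies on chromosome 9 (78182774 to 78209349, plus strand). Its levels were 14.2, 12.3 and 13.1 CPM in WT DMSO, 24.0, 24.2 and 24.3 CPM in WT CFZ, 16.7, 17.4 and 16.6 CPM in Nrf1-KO DMSO and 8.73, 9.81 and 9.11 CPM in Nrf1-KO CFZ. It thus rose in WT cells and fell in Nrf1-KO cells without overlap between treated and untreated libraries of either line, and its interaction was -1.74 ± 0.11.

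Other members can be read by their steps in redox metabolism. These and other list members given without library values were chosen after their values had been seen. In glutathione metabolism the interaction was -1.46 ± 0.06 for Gsr (glutathione reductase), -1.02 ± 0.05 for Gclm (the modifier subunit of glutamate-cysteine ligase) and -0.51 for Gss (glutathione synthetase). Gclc, the catalytic subunit of the same ligase, rose by 1.21 in WT and 1.40 in Nrf1-KO cells on the log2 scale and so differed by 0.20 ± 0.06 in the other direction. In the thioredoxin and peroxide systems, Prdx1 differed by -0.92, Sod1 by -0.81, Sod2 by -0.75, Cat (catalase) by -0.68, Prdx6 by -0.59, Txn1 by -0.50 and Txnrd1 by -0.33. Prdx1 rose by 0.85 in WT cells, and in Nrf1-KO cells its change was -0.07 (adjusted p = 0.134, edgeR). The pentose phosphate enzymes Pgd, Taldo1 and G6pdx, which supply NADPH, differed by -0.60, -0.55 and -0.52. Among the regulators, Keap1, the adaptor that marks Nrf2 for degradation, differed by -1.04, and the small Maf partners Maff and Mafg by -1.001 and -0.72. In DMSO the mean of Maff was 4.04 CPM in WT and 8.11 CPM in Nrf1-KO cells. After CFZ it was 21.5 and 22.3 CPM, a difference between the lines that was not called. Nfe2l2, which encodes Nrf2, rose in both lines by 0.76 and 0.62 and differed by -0.14 (adjusted p = 0.028, edgeR). Nqo1, a quinone reductase often used as an Nrf2 reporter gene, rose by 0.58 in WT and 0.54 in Nrf1-KO cells, with an interaction of -0.04 ± 0.05 (adjusted p = 0.623, edgeR).

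Nrf1-type factors bind antioxidant response elements, so the RefSeq promoter windows (250 bases before to 50 after each annotated start, GRCm38.p6) were searched for the core letters TGACNNNGC on both strands. A window of this kind was at hand for 36 of the 43 antioxidant genes, and 14 of them (38.9%) held the core. It was present for 1595 of the 9376 tested genes with a window (17%) and for 3781 of all 27025 genes with one (14%). In the ATF4 list described later, which responded in the other direction, 10 of 32 genes with a window (31.2%) held the same core. Only 78% of that list had a window, under the 80% set as the least coverage, so its share is given as a description. The core overlaps AP-1 sites in part. A match is a description of these letters and not a binding site. Genes described below held the core in both directions, among them Dnajb1 and Herpud1 (higher response) and Calr3 and Fam219a (lower response). The stretches below show where the match lies, in capitals, near the start of Srxn1 (chr2:152105542-152105571, plus strand, beginning 10 bases before a match on the opposite strand that lies 28 bases after the start) and upstream of Adrm1 (chr2:180171338-180171484, plus strand), a proteasome gene described next.
Srxn1: gcagtgggcaGCTAGGTCAgagtgagacac
Adrm1: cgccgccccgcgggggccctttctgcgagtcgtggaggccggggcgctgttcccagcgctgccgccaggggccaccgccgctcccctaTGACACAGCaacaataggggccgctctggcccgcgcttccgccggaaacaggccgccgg

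Several genes that assemble, extend or feed the proteasome, beyond the subunits set aside, also had a lower response in Nrf1-KO cells. Of 18 tested assembly, activator and immunoproteasome genes, 7 had a lower response (38.9%, against 18.4% of all tested genes) and 0 a higher one (0 also at an unadjusted p-value under 0.05, by DESeq2 and under every alternative), with a median interaction of -0.21. Pomp, the maturation factor of the 20S core (chromosome 5, 147860461 to 147876456, plus strand), measured 69.9, 74.6 and 71.7 CPM in WT DMSO and 132, 121 and 121 CPM in WT CFZ. In Nrf1-KO cells it measured 87.6, 88.0 and 95.6 CPM in DMSO and 65.8, 70.2 and 65.0 CPM in CFZ. The gene thus rose in WT cells and fell in Nrf1-KO cells, with an interaction of -1.22 ± 0.07 (edgeR adjusted p = 6.89e-15). Adrm1, a ubiquitin receptor of the 19S particle (chromosome 2, 180171485 to 180176286, plus strand), rose from 79.2, 85.2 and 75.1 to 263, 257 and 266 CPM in WT cells. In Nrf1-KO cells it rose from 61.7, 61.9 and 59.1 to 86.7, 90.0 and 87.9 CPM, an interaction of -1.17 ± 0.06. All treated libraries stood above the untreated libraries of their line, and the treated WT libraries stood far above the treated Nrf1-KO libraries. Of the stretches of read length in Adrm1 transcripts 20.1% are shared with the gene model Gm9774. This is not a share of reads, and its effect on the counts of Adrm1 was not tested. Psme4 (the activator PA200), Usp14 (a proteasome-bound deubiquitinase) and AI314180 (the mouse Ecm29 scaffold) differed by -1.03, -0.96 and -0.75. The assembly chaperones Psmg1 and Psmg2 and the activator subunit Psme1 had interactions of 0.04, -0.21 and 0.05 and were not called.

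Of 39 tested ubiquitin, VCP and shuttle factor genes, 20 had a lower response in Nrf1-KO cells and 5 a higher one, with a median of -0.19. The share called was 64.1%, against 38.3% of all tested genes (18.4% lower and 19.8% higher). Among the lower calls of the list were the VCP (p97) unfoldase, which extracts ubiquitinated proteins, and several of its cofactors. Nploc4, which forms the substrate-recruiting dimer of VCP (chromosome 11, 120380370 to 120437708, minus strand), rose from 132, 130 and 133 to 498, 506 and 501 CPM in WT cells. The Nrf1-KO cells took it from 96.6, 104 and 105 to 168, 161 and 172 CPM. Both lines responded without overlap, and the interaction was -1.22 ± 0.06 (edgeR adjusted p = 2.31e-17). Its dimer partner Ufd1l differed by -0.85, Vcp itself by -1.10, the cofactor Nsfl1c by -1.10, Ubxn4 by -0.81 and Plaa by -0.81. Vcp rose by 1.19 on the log2 scale in WT cells. Its change of 0.09 in Nrf1-KO cells (edgeR adjusted p = 0.0389) was not called under 13 of 19 alternatives, DESeq2 and every other scaling among them. Zfand2a, also called AIRAP, a stress-inducible adaptor of the proteasome (chromosome 5, 139471211 to 139484549, minus strand), rose from 26.6, 26.8 and 24.4 to 243, 238 and 238 CPM in WT cells and from 31.9, 34.2 and 32.0 to 131, 135 and 137 CPM in Nrf1-KO cells. It was strongly induced in both lines, with an interaction of -1.16 ± 0.06. The shuttle factors Ubqln2 and Rad23b differed by -0.88 and -0.58. The polyubiquitin gene Ubb had an interaction of -0.02 and was not called. Ube2h, a ubiquitin-conjugating enzyme, had the largest higher response of the list, at 0.40. The 5 higher calls were 8 under upper-quartile scaling, 3 without the first WT DMSO library or the third WT CFZ library, and 2 without the second WT CFZ library.

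The ATF4 and amino acid response list moved the other way. Of 41 tested genes, 36 had a higher response in Nrf1-KO cells and 0 a lower one, with a median interaction of 0.40 and 4 genes at least 2-fold higher. This was 87.8% of the list, against 19.8% higher and 18.4% lower over all tested genes (1.21% at least 2-fold higher). No alternative left fewer than 33 higher calls, and 1 gene was called lower without the first WT DMSO library or without the second WT CFZ library. The list also held 0 lower genes by DESeq2 and 0 at an unadjusted p-value under 0.05 in edgeR. The median change with CFZ was 0.19 in WT cells, where 27 genes rose and 8 fell, and 0.61 in Nrf1-KO cells, where 35 rose and 2 fell. In DMSO the median difference between the lines was -0.26, as the level in Nrf1-KO cells less that in WT cells.

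Chac1, a glutathione-degrading enzyme induced by ATF4 and CHOP (chromosome 2, 119351229 to 119354381, plus strand), measured 34.6, 34.9 and 35.3 CPM in WT DMSO and 27.97, 26.3 and 26.8 CPM in Nrf1-KO DMSO. After CFZ it measured 91.9, 83.6 and 81.5 CPM in WT cells and 198, 190 and 183 CPM in Nrf1-KO cells. It was lower in Nrf1-KO than in WT libraries before CFZ and higher after it, with an interaction of 1.53 ± 0.07 (edgeR adjusted p = 1.93e-17). Trib3, a pseudokinase that restrains ATF4 (chromosome 2, 152337422 to 152344032, minus strand), followed the same order. It measured 104, 112 and 111 CPM in WT DMSO, 159, 157 and 152 CPM in WT CFZ, 48.1, 49.4 and 49.6 CPM in Nrf1-KO DMSO and 203, 203 and 207 CPM in Nrf1-KO CFZ, an interaction of 1.54 ± 0.05. The difference between the lines was larger in DMSO (-1.15 on the log2 scale) than after CFZ (0.39).

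By role, the amino acid transporters Slc6a9 (glycine), Slc1a5 (glutamine), Slc7a5 (large neutral amino acids) and Slc7a1 (cationic amino acids) had interactions of 0.83, 0.81, 0.71 and 0.51. Slc6a9 and Slc1a5 rose in Nrf1-KO cells by 0.79 and 0.83, and their changes in WT cells were -0.03 and 0.02 and were not called. Among synthesis enzymes the interaction was 1.17 for Gpt2 (alanine transaminase), 0.69 for Psph (serine), 0.54 for Aldh18a1 (proline), 0.40 for Asns (asparagine) and 0.32 for Shmt2 (one-carbon units). The tRNA synthetase genes moved less and in the same direction, from 0.13 for Aars to 0.49 for Sars, while Mars was at 0.00 and was not called. Vldlr, a lipoprotein receptor, had an interaction of 1.09. Atf4 transcripts rose in both lines by 0.55 and 0.60, and their interaction of 0.05 ± 0.05 was not called (adjusted p = 0.479, edgeR). Gdf15, a secreted stress cytokine, had the largest estimate of the list, 1.90 ± 1.23, but at a mean of 5.92 counts per library it was not called.

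ATF4 binds C/EBP-ATF response elements, and the core letters TGATGNAA were searched on both strands of the same promoter windows. A window was at hand for 32 of the 41 tested genes of the list (78%), under the 80% set as the least coverage for a check over a list, so the check is void and the counts are given as a description. The core was held by 13 of those 32 genes (40.6%), by 254 of the 9376 tested genes with a window (2.71%) and by 4.51% of all genes with one. The matches of the most responsive pair are shown in capitals. The stretch of Chac1 is upstream of the gene (chr2:119350992-119351228, plus strand), and the stretch of Trib3 lies just after the RefSeq start (chr2:152344027-152344056, minus strand).
Chac1: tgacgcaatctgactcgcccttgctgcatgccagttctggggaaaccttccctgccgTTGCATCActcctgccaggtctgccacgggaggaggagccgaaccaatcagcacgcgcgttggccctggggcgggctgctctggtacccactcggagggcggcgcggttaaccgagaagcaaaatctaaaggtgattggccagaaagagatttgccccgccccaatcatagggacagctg
Trib3: tagctcaggtTTACATCAgccgggcgggga

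**Figure D2:**
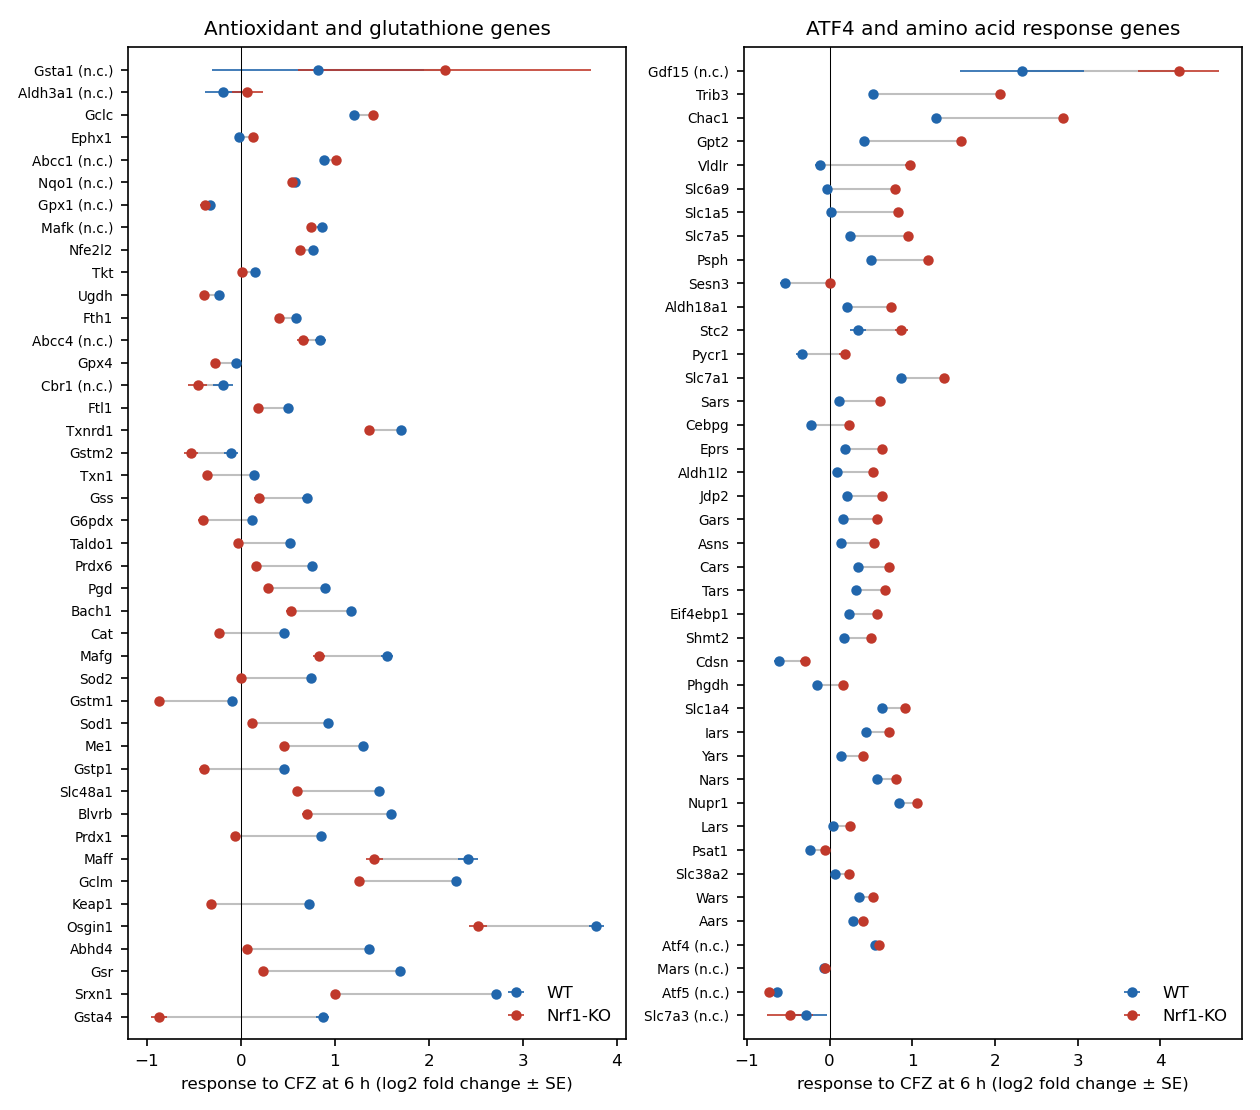
Each row is a gene of the antioxidant and glutathione list (left, 43 genes) or of the ATF4 and amino acid response list (right, 41 genes), and points give its log2 change with 200 nM CFZ at 6 h in WT and in Nrf1-KO cells with the standard error from edgeR. Genes marked n.c. had no called interaction. Nrf1-KO points lie to the left of WT points for most antioxidant genes and to the right for most ATF4 genes.

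Genes of the p53 and BCL2 family list also tended toward a higher response in Nrf1-KO cells, with 18 of 31 called higher, 3 lower and a median interaction of 0.24. In all, 67.7% of the list were called, against 38.3% of all tested genes (19.8% higher and 18.4% lower). Pmaip1, which encodes the pro-apoptotic BH3 protein Noxa, rose from 6.39, 6.26 and 6.83 to 29.7, 25.5 and 26.7 CPM in WT cells and from 4.47, 4.97 and 3.82 to 41.3, 39.2 and 36.3 CPM in Nrf1-KO cells. All Nrf1-KO CFZ libraries exceeded all WT CFZ libraries, and the interaction was 1.11 ± 0.135 (edgeR adjusted p = 6.26e-08). Bcl2l11, which encodes the BH3 protein Bim (chromosome 2, 128126038 to 128162547, plus strand), fell from 21.5, 19.4 and 20.9 to 7.66, 6.92 and 6.63 CPM in WT cells and from 11.8, 14.96 and 13.2 to 10.4, 10.7 and 8.15 CPM in Nrf1-KO cells. Its interaction of 1.12 ± 0.145 therefore reflects a smaller fall and not a rise. The cell cycle inhibitor Cdkn1a and the p53 target Trp53inp1 differed by 0.81 and 0.82, and Bbc3, which encodes the BH3 protein Puma, by 0.72. Bbc3 rose by 0.68 in Nrf1-KO cells, and its change in WT cells was -0.04 (adjusted p = 0.64, edgeR). Trp53 itself rose in both lines by 0.73 and 0.76, with an interaction of 0.03 ± 0.06 that was not called. The 3 lower genes were Bak1 (-0.71), the mitophagy receptor Bnip3 (-0.57) and Gadd45b (-0.42). For Bak1, 25.5% of the exonic bases overlap Ggnbp1 on the other strand, and for Bnip3 22.3% overlap Gm45507. Whether the authors counted by strand is not given in the sources used here.

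Heat shock genes were induced strongly in both lines, with a median log2 change of 1.59 in WT and 1.71 in Nrf1-KO cells. Of 33 tested, 17 had a higher response in Nrf1-KO cells and 7 a lower one, and the median interaction was 0.17. Over all tested genes 19.8% were called higher and 18.4% lower, and the lower calls of the list were near that share. Dnajb1, an inducible HSP40 (chromosome 8, 83608193 to 83612653, plus strand), rose from 75.1, 85.5 and 82.0 to 834, 803 and 778 CPM in WT cells. The Nrf1-KO levels rose from 80.4, 76.7 and 81.3 to 1122, 1150 and 1248 CPM. The ranges of the treated groups did not overlap, and the interaction was 0.56 ± 0.06. Hsf2, a heat shock transcription factor (chromosome 10, 57486385 to 57513135, plus strand), departed from this. Its levels rose from 30.4, 30.7 and 33.9 to 108, 108 and 104 CPM in WT cells and from 30.0, 30.0 and 29.1 to 49.4, 46.5 and 48.1 CPM in Nrf1-KO cells, an interaction of -1.06 ± 0.07 (edgeR adjusted p = 3.45e-14). Bag2, an HSP70 co-chaperone, differed by -0.78. The small heat shock protein gene Cryab differed by 0.61, the mitochondrial chaperonin genes Hspd1 and Hspe1 by 0.31 and 0.36, and Hsp90aa1 by 0.32. The near-identical HSP70 genes Hspa1a and Hspa1b had interactions of 0.14 (not called) and 0.26, which are uncertain because reads can be shared between them.

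Endoplasmic reticulum folding and degradation genes beyond the UPR list set aside showed small differences. Of 51 tested, 17 had a lower and 5 a higher response, with a median of -0.07. The share called was 43.1%, against 38.3% of all tested genes (18.4% lower and 19.8% higher). Under upper-quartile scaling the lower and higher calls became 11 and 8. Without the second WT CFZ library the higher calls were 3. The lower genes included Dnajb9 (-0.81), a lumenal co-chaperone, Atf6b (-0.65) and the signal peptidase subunit Sec11c (-0.62). Herpud1 and Derl1, which serve ER-associated degradation, were higher, at 0.33 and 0.29, as was Xbp1 (0.20).

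The AP-1 and immediate early list was divided, with 17 of 39 genes higher and 9 lower in Nrf1-KO cells and a median of 0.19. All tested genes had 19.8% higher and 18.4% lower calls, and the lower calls of the list were near that share. The 17 higher calls were 10 without the third WT CFZ library and 11 without the first or second WT CFZ library or the first Nrf1-KO CFZ library. Fosl1, an AP-1 subunit (chromosome 19, 5447547 to 5455946, plus strand), rose from 5.22, 7.91 and 6.17 to 95.6, 89.4 and 91.3 CPM in WT cells. In Nrf1-KO cells it rose from 14.8, 14.5 and 15.04 to 58.9, 54.0 and 56.8 CPM, an interaction of -1.92 ± 0.11 (edgeR adjusted p = 4.21e-15). Nrf1-KO libraries were above WT libraries in DMSO and below them after CFZ. Of the exonic bases of Fosl1 57.2% overlap Ccdc85b on the other strand. Klf4 and Ier2 had interactions of 0.70 and 0.68. The difference between the lines (Nrf1-KO less WT) was -0.62 in DMSO and 0.09 after CFZ for Klf4, and -0.28 and 0.40 for Ier2. Nr4a3 had the largest value of the list (3.25 ± 0.965), from a mean of 3.08 counts per library.

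Autophagy and lysosome genes had 12 of 43 lower and 5 higher. The share called, 39.5%, was close to the 38.3% of all tested genes. Their median of -0.03 became 0.01 under upper-quartile scaling. Gabarapl1, an ATG8-family protein of autophagosomes (chromosome 6, 129533160 to 129542346, plus strand), rose from 83.2, 74.4 and 81.1 to 277, 290 and 276 CPM in WT cells and from 81.0, 77.3 and 87.9 to 106, 111 and 117 CPM in Nrf1-KO cells. The untreated ranges of the lines overlapped and the treated ranges did not, with an interaction of -1.39 ± 0.07 (edgeR adjusted p = 9.42e-17). The exons of this gene overlap 1700101I11Rik on the other strand over 28.3% of their bases. Atp6v1h, a subunit of the proton pump of lysosomes, differed by -0.91, the protease Ctsd by -0.70, the initiating kinase Ulk1 by -0.68 and the receptor Sqstm1 by -0.57. The 5 higher calls of the list were 3 without the first or second WT DMSO library or the first WT CFZ or the third WT CFZ library, and 2 without the second WT CFZ library.

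In the remaining lists the medians lay between -0.11 and 0.13. The share of genes called ran from 31.7% for replication to 58.6% for glycolysis and hypoxia, against 38.3% of all tested genes (19.8% higher and 18.4% lower). It was 36.4% for cholesterol, 38.1% for ribosome biogenesis, 41.9% for actin, 42.3% for NF-kB, 44.4% for metal and iron, 45% for mitosis and 52.6% for collagen and matrix genes. Of 42 ribosome biogenesis genes 15 were lower and 1 higher (2 higher without the second Nrf1-KO DMSO library), with Nop10 at -0.58. By direction this was a larger share lower and a smaller share higher than over all tested genes, and the lower calls ranged from 14 to 18 under the alternatives. Of 41 replication genes 9 were lower and 4 higher, with Gins3 at -0.66, and the 4 higher calls were 1 without the second WT DMSO, the first or second WT CFZ or the first Nrf1-KO CFZ library and 2 without the second Nrf1-KO CFZ library or by DESeq2. Of 40 mitosis genes 11 were higher and 7 lower, with Cenpe at 0.40 and Bub1b at -0.55. Its higher calls were 4 without the second WT CFZ, 5 without the second WT DMSO, 6 without the third Nrf1-KO DMSO or first Nrf1-KO CFZ, and 7 without the first WT DMSO, first WT CFZ or second Nrf1-KO DMSO library or with no expression filter, and its lower calls were 4 without the third Nrf1-KO CFZ library or under upper-quartile scaling. Collagen and matrix genes counted 15 higher and 5 lower of 38, from 0.69 for Col11a1 to -0.71 for Thbs1. Without single libraries or under other settings, their higher calls ranged from 10 to 19. For Thbs1 the difference between the lines was 0.70 in DMSO and -0.01 after CFZ, the latter not called. Glycolysis and hypoxia genes counted 8 higher and 9 lower of 29, with the stress gene Ndrg1 at 0.88 and the enzyme Pgam1 at -0.78. For Ndrg1 the difference between the lines was -0.63 in DMSO and 0.25 after CFZ. Of the stretches of read length in Pgam1 33% are shared with its pseudogenes. Cholesterol genes counted 7 higher and 5 lower of 33 (3 lower without the second Nrf1-KO CFZ library or under upper-quartile scaling), where the efflux pump Abca1 stood out at 1.04 ± 0.18. Its change was -1.31 in WT cells and -0.27 in Nrf1-KO cells, and the latter was called without the first Nrf1-KO CFZ library (-0.40) but not in the full set of libraries. NF-kB targets counted 7 lower and 4 higher of 26, and the 4 were 2 without the first WT DMSO or the third WT CFZ library and 1 without the second WT CFZ library. The chemokine gene Cxcl5 had an interaction of -1.29 ± 0.14 and the cytokine gene Csf1 one of -0.89 ± 0.05. Cxcl5 rose from a mean of 4.51 to 10.0 CPM in WT cells and went from 25.6 to 22.9 CPM in Nrf1-KO cells. Its level was thus higher in Nrf1-KO cells both in DMSO and after CFZ. Actin genes counted 9 higher and 4 lower of 31, and the 4 were 2 without the third WT DMSO or second Nrf1-KO DMSO library, under upper-quartile scaling or under library size alone. Metal and iron genes counted 4 in each direction of 18, with the transferrin receptor gene Tfrc at -0.78 and the iron sensor gene Fbxl5 at 0.52. Tfrc differed between the lines by 0.82 in DMSO and by 0.04 after CFZ, the latter not called. The medians of the actin, cholesterol and metal lists changed sign under upper-quartile scaling, and that of the mitosis list when single libraries were left out.

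**Figure D3:**
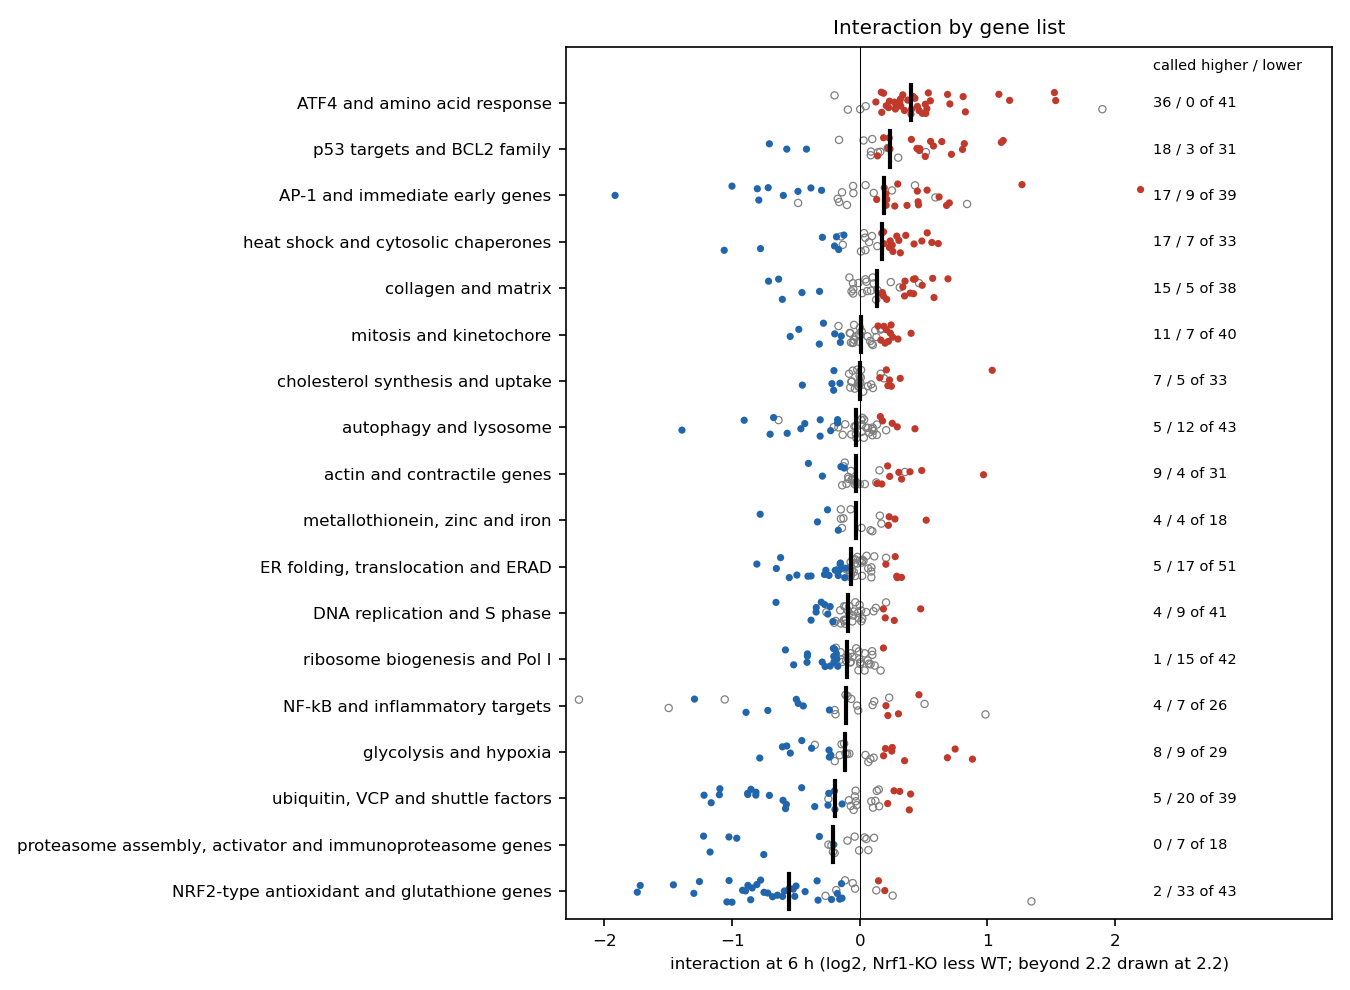
Each point is a tested gene of a list, placed by its interaction at 6 h on the log2 scale (x axis), with filled points for called genes and black bars for the list medians, ordered by median (y axis). The antioxidant list has the lowest median (-0.55) and the ATF4 list the highest (0.40), and the numbers at the right give genes called higher and lower of those tested.

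Among all genes outside the proteasome and UPR lists, the 10 with the largest lower responses were Calr3, Fam219a, BC028528, Mfsd6, Cd300lb, Arnt2, Sumf2, Pfn2, Gm14005 and Fosl1. Genes were taken from those with a called interaction and a mean of at least 50 counts. Calr3, a calreticulin family member best known from testis (chromosome 8, 72424176 to 72443870, minus strand), measured 1.42, 1.48 and 1.33 CPM in WT DMSO and 18.2, 19.0 and 19.1 CPM in WT CFZ. In Nrf1-KO cells it measured 2.04, 1.91 and 2.62 CPM in DMSO and 1.25, 2.09 and 1.80 CPM in CFZ. Only the WT CFZ libraries were high, and the change of -0.42 in Nrf1-KO cells was not called (adjusted p = 0.0785, edgeR), giving an interaction of -4.15 ± 0.25 (edgeR adjusted p = 7.31e-15). The Nrf1-KO change was called without the second Nrf1-KO DMSO library (-0.51) or the second Nrf1-KO CFZ library (-0.63). Fam219a rose by 2.88 in WT and 0.42 in Nrf1-KO cells. Mfsd6, a transporter-like membrane protein (chromosome 1, 52656286 to 52727462, minus strand), rose from 11.6, 13.1 and 12.9 to 53.2, 54.8 and 55.7 CPM in WT cells and fell from 25.4, 28.5 and 25.4 to 23.0, 22.2 and 23.1 CPM in Nrf1-KO cells. Its untreated level was therefore higher and its treated level lower in Nrf1-KO cells, with an interaction of -2.33 ± 0.09. Pfn2, an actin-binding profilin (chromosome 3, 57841895 to 57848079, minus strand), rose from 41.5, 38.6 and 42.0 to 142, 141 and 141 CPM in WT cells and fell from 27.2, 26.0 and 27.5 to 23.1, 22.9 and 21.2 CPM in Nrf1-KO cells. The interaction of Pfn2 was -2.05 ± 0.08.

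Arnt2, a bHLH-PAS transcription factor, rose from 7.76, 7.09 and 7.62 to 19.6, 17.2 and 17.7 CPM in WT cells and fell from 4.01, 4.07 and 3.86 to 2.28, 1.54 and 2.76 CPM in Nrf1-KO cells. Sumf2, an ER-resident paralogue of the sulfatase-modifying factor, rose from 36.7, 35.5 and 36.5 to 86.4, 86.7 and 85.1 CPM in WT cells and fell from 35.6, 37.3 and 37.7 to 17.5, 20.6 and 23.7 CPM in Nrf1-KO cells. Both genes moved in opposite directions in the lines, with interactions of -2.17 ± 0.21 and -2.12 ± 0.08. BC028528 did so as well, at 1.65 in WT and -0.80 in Nrf1-KO cells. Exonic overlap with a gene on the other strand covers 49.8% of the bases of BC028528, 23.6% of Sumf2 and 15.6% of Fam219a. Impact, a regulator of the eIF2 alpha kinase GCN2, rose from 91.5, 82.4 and 89.5 to 355, 365 and 341 CPM in WT cells and from 57.3, 61.0 and 62.6 to 74.9, 65.3 and 70.6 CPM in Nrf1-KO cells. Its log2 change was 2.01 in WT and 0.22 in Nrf1-KO cells, an interaction of -1.79 ± 0.07.

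In the higher direction the 10 largest were Prickle1, Stbd1, Rgag1, Stard5, Trib3, Wnk4, Chac1, Paqr3, Gli1 and Gpr146. Prickle1, a planar cell polarity protein (chromosome 15, 93499114 to 93595891, minus strand), measured 8.11, 5.96 and 8.55 CPM in WT DMSO, 8.11, 7.43 and 6.93 CPM in WT CFZ, 2.23, 1.97 and 2.16 CPM in Nrf1-KO DMSO and 14.1, 16.1 and 15.7 CPM in Nrf1-KO CFZ. The WT groups overlapped, whereas the Nrf1-KO groups lay below and above them, with an interaction of 2.85 ± 0.18 (edgeR adjusted p = 4.92e-14). Stbd1, which tethers glycogen to membranes (chromosome 5, 92603041 to 92606579, plus strand), rose from 37.7, 38.9 and 37.7 to 66.2, 66.0 and 63.3 CPM in WT cells and from 20.6, 19.0 and 19.0 to 97.3, 102 and 109 CPM in Nrf1-KO cells. It responded in both lines, and its interaction was 1.62 ± 0.07. Stard5, a sterol transfer protein, rose by 0.50 in WT and 2.09 in Nrf1-KO cells. Of its exonic bases 22% overlap Il16 on the other strand.

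For other genes with a positive interaction, CFZ lowered the level in WT cells and did so less or not at all in Nrf1-KO cells. Gli1, a Hedgehog pathway effector and target (chromosome 10, 127329882 to 127341974, minus strand), fell from 9.13, 9.21 and 10.1 to 4.78, 2.99 and 3.92 CPM in WT cells. In Nrf1-KO cells it measured 7.09, 7.83 and 7.403 CPM in DMSO and 7.85, 9.34 and 9.11 CPM in CFZ, a change of 0.23 that was not called (adjusted p = 0.0898, edgeR) but was called without the first Nrf1-KO CFZ library (0.32). Rgag1, Wnk4 and Gpr146 fell by 3.13, 2.04 and 2.57 on the log2 scale in WT cells and by 1.52, 0.51 and 1.16 in Nrf1-KO cells. Wnk4 measured 5.25, 5.09 and 4.28 CPM in Nrf1-KO DMSO and 4.18, 3.71 and 1.44 CPM in Nrf1-KO CFZ. Without the third Nrf1-KO CFZ library its change in Nrf1-KO cells was -0.27 and was not called (edgeR adjusted p = 0.134), and its interaction was 1.77. Itgb8 and Tmem44 fell by 1.36 and 1.18 in WT cells, and their changes of -0.06 and -0.18 in Nrf1-KO cells were not called. Paqr3 and Fibin fell in WT cells and rose in Nrf1-KO cells, with interactions of 1.51 and 1.32. For Fibin the difference between the lines (Nrf1-KO less WT) was -1.20 in DMSO and 0.13 after CFZ, the latter not called. The pseudogene row Hmga2-ps1, whose reads may belong to its parent gene, had an interaction of 1.32. Its change of 0.29 in Nrf1-KO cells (edgeR adjusted p = 0.0495) lost its call under 15 of 19 alternatives, DESeq2 and the replicate block among them. For Paqr3 15.7% of exonic bases overlap Bmp2k on the other strand.

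Changes largely restricted to Nrf1-KO cells were fewer. Acot2, a mitochondrial acyl-CoA thioesterase, and Chd5, a chromatin remodeller, rose by 1.30 and 1.29 there, while their WT changes of -0.10 and 0.23 were not called. Without the third WT DMSO library the WT change of Acot2 was called, at -0.15. The level of Acot2 differed between the lines (Nrf1-KO less WT) by -0.93 in DMSO and by 0.47 after CFZ. Of the stretches of read length in Acot2 13.7% are shared with Acot1. Cd300lb, a myeloid receptor gene, measured 1.62, 2.78 and 2.72 CPM in WT DMSO, 1.90, 1.75 and 2.18 CPM in WT CFZ, 6.501, 7.96 and 7.29 CPM in Nrf1-KO DMSO and 1.10, 1.16 and 1.44 CPM in Nrf1-KO CFZ. The Nrf1-KO DMSO libraries alone were high, and the interaction was -2.33 ± 0.35. The summed haematopoietic markers were also higher in Nrf1-KO than in WT libraries, as given above, but were higher in Nrf1-KO CFZ than in Nrf1-KO DMSO, and their part in this value was not tested. Angptl4, a secreted lipase inhibitor, and Mblac2 fell by 1.79 and 1.34 in Nrf1-KO cells. Their changes in WT cells were -0.24, which was not called, and -0.25, of which the latter lost its call without the first WT DMSO library or any single WT CFZ library.

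**Figure D4:**
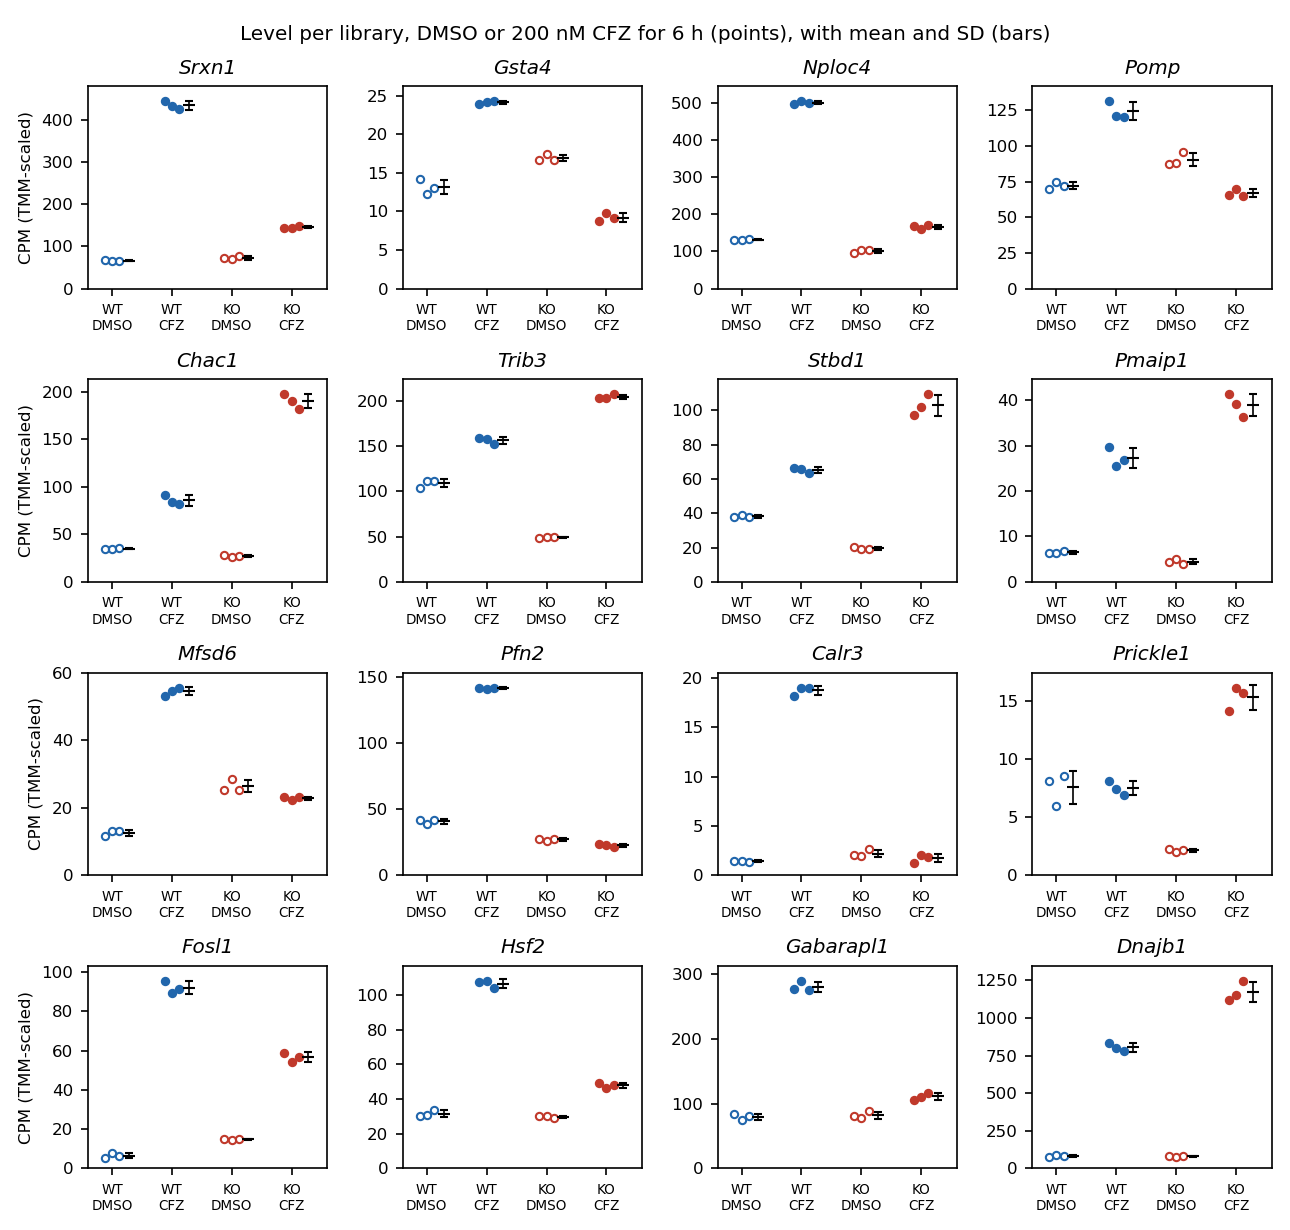
Panels show 16 genes with the level of each library as TMM-scaled CPM on linear axes from 0 (y axis) for WT cells in DMSO, WT cells in CFZ, Nrf1-KO cells in DMSO and Nrf1-KO cells in CFZ for 6 h (x axis), with the mean and SD of 3 replicates beside the points. In Calr3 the WT CFZ libraries alone are high, and in Prickle1 the Nrf1-KO CFZ libraries are the highest.

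The same quantity was computed at 24 h of CFZ, where the DMSO libraries are shared with the 6 h comparison, so the values are given side by side and their difference was not tested. For the antioxidant list the median was -0.55 after 6 h and -0.22 after 24 h. For Srxn1 it was -1.72 at 6 h and 0.72 at 24 h, and for Zfand2a -1.16 and 0.40. Calr3 (-4.15 and -4.15), Pfn2 (-2.05 and -2.10) and Prickle1 (2.85 and 2.26) had the same sign at both times. The ATF4 list had medians of 0.40 and 0.41, with Chac1 at 1.53 and 0.80 and Trib3 at 1.54 and 1.2. The mitosis list stood at 0.01 at 6 h and -1.52 at 24 h. At 24 h the interaction was called higher for 29.7% and lower for 30% of all tested genes. Its median was 0.01 outside the proteasome and UPR lists.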

How the data were processed

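RNA from WT and Nrf1-KO NIH-3T3 cells was sequenced as paired 125-base reads from stranded mRNA libraries. The authors processed the reads with RNA Express (STAR and DESeq2) and deposited raw counts per gene symbol, without normalization. The genome build, annotation, versions and use of strand are not given in the sources used here. The labels of the samples gave the groups and the replicate numbers. Of the rows, 27 carry date-like names from spreadsheet conversion and none of them is named here.

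Counts were analysed with edgeR 4.0.16 (R 4.3.3, minimum count 10, minimum total count 15, TMM scaling), fitting a quasi-likelihood model of 6 groups over all 18 libraries, so that the 24 h libraries share in the estimate of spread. Benjamini-Hochberg adjustment was over 11762 genes and the threshold was 0.05. Each standard error is the log2 value's size over the root of its F statistic. Levels are TMM-scaled CPM. The named genes are Nfe2l1 and, among called genes outside the proteasome and UPR lists with a mean of at least 50 counts, the 10 largest in each direction, the 3 largest in each direction with opposite changes, the 3 largest in each direction with at least a 2-fold change in WT or Nrf1-KO cells and under 1.2-fold in the other, and the 2 largest in each direction of each of 18 lists. The members and lists were chosen with earlier results of these data known. Some genes that the rule names or the lists hold are not reported here, and all counts include them. The lists set aside were read from the study's heat map.

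Gene positions and exon overlaps are from GENCODE M21 (GRCm38), which 11662 of the tested symbols matched, and promoter windows from RefSeq (GRCm38.p6), matched for 79.7%. The authors' annotation may differ. Alternatives tried were upper-quartile scaling, DESeq2 1.42.0, library size alone, no filter, a mean count of at least 10, the 4 compared groups only, a replicate block and leaving out each of 12 libraries. Counts were simulated for the interaction at 6 h in 11718 genes, with 100 genes changed by 1 and 100 by 0.5 on the log2 scale. In a single run edgeR recovered 100% of changes of 1 and 85% of changes of 0.5. It also made 19 false calls, a share of its calls above the 0.05 threshold. DESeq2 recovered 98% and 79%, with 3 false calls. The share of genes changed was far smaller than the 38.3% called in the data. The counts were drawn with the spread that edgeR itself had estimated and with observed group means, except for Nrf1-KO cells after 6 h of CFZ. There the mean was set to the Nrf1-KO DMSO mean times the WT response. No gene therefore had an interaction before the changes were placed. Changes were placed only in genes with a mean of at least 50 counts, so recovery for genes with fewer counts was not tested. The chi-square per degree of freedom between replicates ran from 1.438 to 5.504.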

Additional observations from a re-analysis of the deposited data

Results flagged for a closer look

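Every gene named below had a response to CFZ at 6 h that differed between WT and Nrf1-KO cells by the interaction term of edgeR, and values in brackets are interactions on the log2 scale. The targeted gene Nfe2l1 had an interaction of 0.70. Outside the gene lists, higher responses in Nrf1-KO cells were found for Prickle1 (2.85), Stbd1 (1.62), Rgag1 (1.61), Stard5 (1.58), Wnk4 (1.53), Paqr3 (1.51), Gli1 (1.51), Gpr146 (1.42), Fibin (1.32), Hmga2-ps1 (1.32), Itgb8 (1.30), Tmem44 (0.995), Acot2 (1.40) and Chd5 (1.07). Lower responses outside the lists were found for Calr3 (-4.15), Fam219a (-2.46), BC028528 (-2.44), Mfsd6 (-2.33), Cd300lb (-2.33), Arnt2 (-2.17), Sumf2 (-2.12), Pfn2 (-2.05), Gm14005 (-1.95), Impact (-1.79), Angptl4 (-1.56) and Mblac2 (-1.09). For the ATF4 and amino acid response list the named genes were Trib3 (1.54) and Chac1 (1.53). Those of the AP-1 and immediate early list were Fosl1 (-1.92), Klf4 (0.70), Ier2 (0.68) and Maff (-1.001). In the heat shock and cytosolic chaperones list they were Cryab (0.61), Dnajb1 (0.56), Hsf2 (-1.06) and Bag2 (-0.78). From the antioxidant and glutathione list came Gclc (0.20), Ephx1 (0.15), Gsta4 (-1.74) and Srxn1 (-1.72). For the proteasome assembly and activator list the named genes were Pomp (-1.22) and Adrm1 (-1.17). Those of the ubiquitin, VCP and shuttle factors list were Ube2h (0.40), Zfand2b (0.39), Nploc4 (-1.22) and Zfand2a (-1.16). In the ER folding, translocation and ERAD list they were Herpud1 (0.33), Derl1 (0.29), Dnajb9 (-0.81) and Atf6b (-0.65). From the p53 targets and BCL2 family list came Bcl2l11 (1.12), Pmaip1 (1.11), Bak1 (-0.71) and Bnip3 (-0.57). For the cholesterol synthesis and uptake list the named genes were Abca1 (1.04), Fasn (0.32), Nr1h2 (-0.45) and Sqle (-0.22). Those of the DNA replication and S phase list were E2f2 (0.48), Pold1 (0.27), Gins3 (-0.66) and Orc1 (-0.38). In the mitosis and kinetochore list they were Cenpe (0.40), Espl1 (0.30), Bub1b (-0.55) and Hmmr (-0.48). From the NF-kB and inflammatory targets list came Rel (0.46), Relb (0.30), Cxcl5 (-1.29) and Csf1 (-0.89). For the collagen and matrix list the named genes were Col11a1 (0.69), Tnc (0.58) and Thbs1 (-0.71). Those of the actin and contractile list were Myl9 (0.49), Myh9 (0.39), Pdlim7 (-0.40) and Tubb2a (-0.29). In the autophagy and lysosome list they were Mitf (0.43), Ulk2 (0.29), Gabarapl1 (-1.39) and Atp6v1h (-0.91). From the glycolysis and hypoxia list came Ndrg1 (0.88), P4ha2 (0.75), Pgam1 (-0.78) and Aldoa (-0.61). For the metallothionein, zinc and iron list the named genes were Fbxl5 (0.52), Aco1 (0.28), Tfrc (-0.78) and Mt2 (-0.33). Those of the ribosome biogenesis and Pol I list were Ubtf (0.19), Nop10 (-0.58) and Polr1e (-0.52). Of the exonic bases of Mt2 73.5% overlap Gm45774 on the other strand, and of those of Cryab 17% overlap Hspb2. Of the stretches of read length in Tubb2a 31.5% are shared with Tubb2a-ps2 and Tubb2b. The groups hold 3 libraries each, which is too few for a test of outlying libraries.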

How the results depend on the processing

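Across the alternatives, every count of called genes in the 5 comparisons kept within 1.5 times its reported value. The interaction counted 2025 higher and 1836 lower genes by DESeq2, 2532 and 1926 with library size alone, 2736 and 1778 under upper-quartile scaling and 2098 and 2327 without the expression filter. Higher genes made up 51.8% of the called genes in the reported results and 60.3% under upper-quartile scaling, which moved the median interaction of all genes from 0.02 to 0.05. With single libraries left out the higher genes ranged from 1844 to 2295 and the lower from 1942 to 2268. No interaction of a named gene changed sign. Of 1786 alternative values of the named genes 41 lost their call, all of them for Gclc, Ephx1, Fasn, E2f2, Pold1, Espl1, Rel, Relb and Mitf, whose cause was not tested. Small changes within a line moved with the scaling. With library size alone, Slc6a9 (-0.17), Slc1a5 (-0.11), Bbc3 (-0.17), Acot2 (-0.24) and Angptl4 (-0.37) in WT cells and Prdx1 (-0.18), Calr3 (-0.53) and Abca1 (-0.38) in Nrf1-KO cells were called lower after CFZ. Impact (0.10), Vcp (-0.02) and Hmga2-ps1 (0.18) lost their call in Nrf1-KO cells, and Mblac2 in WT cells (-0.38) and Mfsd6 in Nrf1-KO cells (-0.32) moved by over 1.5 times.

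The labels number replicates alike in each group, but same-numbered libraries did not deviate together, with a mean correlation of 0.01 over 18 pairs of the 12 libraries (-0.05 to 0.07). With the replicate block the interaction counted 2399 higher and 2194 lower genes, and 140 and 166 at 2-fold. Depth limited the genes with few counts, such as Gdf15 and Nr4a3, for which large values came with large errors.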
